A study of Bos taurus with 3 samples.

Results

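Growth factors act on epithelial cells through receptor tyrosine kinases, the RAS proteins and a cascade of kinases that ends in ERK, and stress signals act through the related kinases JNK and p38. Active ERK raises the transcription of genes whose products turn the same cascade down, so that a signal ends soon after it starts. These products include the DUSP phosphatases, which remove phosphate from the MAP kinases themselves, and the Sprouty and SPRED proteins, which act between the receptor and RAF. Their transcripts are therefore widely used as readouts of recent signalling through the pathway. The genes described here are 10, fixed by name and called feedback genes below: DUSP1, DUSP2, DUSP5 and DUSP6, SPRY1, SPRY2 and SPRY4, SPRED1 and SPRED2, and IER3. IER3 is listed with them as an immediate-early gene that acts on ERK signalling and cell survival, not as an inhibitor of the cascade. All 10 had at least 1 UMI (unique molecular identifier, a tag that counts each captured transcript once) among the 19533 named genes of the matrix.

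Rumen epithelium was taken from the ventral sac of 3 adult lactating Holstein cows, each giving 1 library, with no treatment and no second condition. The wall was stripped of muscle, the tissue was digested with EDTA, trypsin and a mixture of collagenases, dispase and hyaluronidase, and the cells were captured in droplets. The deposited matrix held 3369 cells of cow 1, 7401 of cow 2 and 9958 of cow 3, with 38912809, 94856658 and 104189434 UMIs. Between 15 and 30 barcodes of each cow were also present in another cow. Other cell types had been removed by the authors, so the question was how the feedback genes differed among states of the epithelium within each animal.

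States were set by 4 genes, each counted as positive from 1 UMI and negative at 0. DLK2 is a membrane protein of the delta-like family, CDKN1C is the cyclin-dependent kinase inhibitor p57, TM4SF1 is a membrane protein of the transmembrane 4 L6 family, and GJA1 is the gap junction protein connexin 43. Cells positive for DLK2 and CDKN1C only (DLK2+CDKN1C+) numbered 1394, those positive for DLK2 only (DLK2+) 3576, for CDKN1C only (CDKN1C+) 1431, for TM4SF1 only (TM4SF1+) 3021, for GJA1 only (GJA1+) 767, for GJA1 and TM4SF1 only (GJA1+TM4SF1+) 802, and for none of the 4 genes 6438. The remaining 3299 cells had other combinations and entered no test of states. They made up 31.3% of cow 2, and only 88 GJA1+ cells came from that cow. A gate of 1 UMI can miss a transcript that was present or count a free one, and it depends on depth: the median was 7421 UMIs per cell in CDKN1C+, 7579.5 in DLK2+CDKN1C+, 9613 in DLK2+, 13510 in TM4SF1+, 13804 in GJA1+ and 17521 in GJA1+TM4SF1+. Free RNA was not measured, and its part in the states was not tested.

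The states were of epithelium. The summed level of 8 epithelial markers, KRT5 and KRT14 among them, ranged from 73 to 102 UMIs per 10000 UMIs (mean of 3 cows) over the 7 states, while 5 fibroblast markers summed to at most 0.00149 and LUM was absent from the matrix. Endothelial, smooth muscle and melanocyte markers summed to at most 0.0471, 0.0164 and 0.00723. The 5 immune markers reached 0.48 ± 0.19 (SD, n = 3) in DLK2+CDKN1C+ cells, against 0.253 ± 0.12 in DLK2+, though PTPRC, which marks all leukocytes, had 38 UMIs in 20728 cells. The myeloid markers CD14 and CD68 had 5013 and 819 UMIs, and both were called higher in DLK2+CDKN1C+ than in DLK2+ cells, 2 of the 3 immune markers tested. Markers of the study's cg-like cells, spinous cells with GJA1, summed to 2.66 ± 0.94 in DLK2+CDKN1C+, 5.25 ± 1.7 in DLK2+, 11.4 ± 4.2 in TM4SF1+, 36.2 ± 14 in GJA1+ and 59.5 ± 34 in GJA1+TM4SF1+, and cycling markers to 1.2 ± 1.1, 2.48 ± 1.8, 5.48 ± 3.4, 3.37 ± 1.2 and 2.85 ± 0.92. These classes move with the states, and their part in the differences below was not tested. A list of 20 immediate-early and dissociation genes, which rise within minutes of stress or of tissue digestion, differed between states as well. It took 155, 157 and 49.1 UMIs per 10000 in cows 1, 2 and 3 in DLK2+CDKN1C+, 98.7, 105 and 34.8 in DLK2+, 99, 130 and 54.4 in TM4SF1+, 67.8, 95.9 and 43.8 in GJA1+TM4SF1+, and 49.5, 43.7 and 31.7 in GJA1+. Cow 3 had the lowest share in each of the 7 states. The feedback genes are given below with and without the cells in which this list was high.

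SPRY1, a Sprouty protein that restrains signalling from FGF receptors to RAS, differed between states in a stepwise order. In cows 1, 2 and 3 its level was 1.11, 1.33 and 1.08 UMIs per 10000 in DLK2+CDKN1C+ cells and 1.17, 1.33 and 0.981 in CDKN1C+ cells. It was 0.535, 0.602 and 0.44 in DLK2+, 0.31, 0.308 and 0.267 in TM4SF1+, and 0.136, 0.118 and 0.0809 in GJA1+. Cells positive for no gating gene had 0.369, 0.433 and 0.333. The 3 cows lay close together in each state, the values of DLK2+CDKN1C+, DLK2+, TM4SF1+ and GJA1+ did not overlap, and the mean fell from 1.18 ± 0.13 to 0.112 ± 0.028 (SD, n = 3). Neighbouring states in this order differed in all 3 cows by more than the SD of the difference, except DLK2+CDKN1C+ with CDKN1C+ and GJA1+TM4SF1+ (0.122 ± 0.0035) with GJA1+.

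SPRY2, a second Sprouty protein, followed at a total of 1615 UMIs. It had 0.204, 0.193 and 0.123 UMIs per 10000 in DLK2+CDKN1C+ and 0.11, 0.063 and 0.0519 in DLK2+ in the 3 cows, again with no overlap. It was 0.0579, 0.0506 and 0.0613 in TM4SF1+, and in GJA1+ it rested on 11, 2 and 20 UMIs. The means of CDKN1C+ cells (0.179 ± 0.065) and of cells positive for no gating gene (0.0609 ± 0.0034) did not differ beyond the spread from their neighbours in the order, DLK2+CDKN1C+ in the first case, DLK2+ and TM4SF1+ in the other. SPRY4, the remaining Sprouty gene, had 7 UMIs in all, all of them in cow 2, and was too low to test.

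SPRED1, which recruits neurofibromin to switch off RAS, had levels of 0.799, 0.765 and 0.567 UMIs per 10000 in DLK2+CDKN1C+, 0.475, 0.504 and 0.45 in DLK2+, 0.312, 0.303 and 0.277 in TM4SF1+, and 0.178, 0.0946 and 0.15 in GJA1+. These 4 states did not overlap, and they stood in the order that SPRY1 had. CDKN1C+ cells (0.735 ± 0.18) did not differ from DLK2+CDKN1C+ beyond the spread, nor did GJA1+TM4SF1+ (0.125 ± 0.013) from GJA1+, and cells positive for no gating gene (0.364 ± 0.022) lay between DLK2+ and TM4SF1+ in each cow. SPRED2, its paralogue, was counted 922 times. It had 0.0832, 0.0372 and 0.0411 UMIs per 10000 in DLK2+CDKN1C+ and 0.0746, 0.0346 and 0.0513 in DLK2+, which overlapped, and fell to 0.0422, 0.0158 and 0.00987 in GJA1+. Its means were 0.0649 ± 0.046 in CDKN1C+, 0.0464 ± 0.023 in cells positive for no gating gene, 0.0396 ± 0.018 in TM4SF1+ and 0.0164 ± 0.0047 in GJA1+TM4SF1+. Cow 1 was highest for SPRED2 in each of the 7 states.

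DUSP1, a nuclear phosphatase of p38, JNK and ERK, varied more between cows than the Sprouty genes. Its levels were 5.32, 4.61 and 1.44 UMIs per 10000 in DLK2+CDKN1C+, 3.02, 3.14 and 0.725 in DLK2+, 4.38, 4.01 and 1.55 in TM4SF1+, 3.78, 5.44 and 1.97 in GJA1+TM4SF1+, and 2.28, 1.7 and 0.742 in GJA1+. Cow 3 was lowest in each state, so the groups overlapped although every cow was higher in DLK2+CDKN1C+ than in DLK2+ and higher in GJA1+TM4SF1+ than in GJA1+. The means of DLK2+CDKN1C+, GJA1+TM4SF1+, CDKN1C+ and TM4SF1+ cells (3.79, 3.73, 3.49 and 3.32) did not differ from one to the next beyond the spread, so its highest levels included a state with GJA1. TM4SF1+ cells, the lowest of these, exceeded DLK2+ cells by 1.02 UMIs per 10000 (SD 0.297, n = 3), in 3 of 3 cows. Cells positive for no gating gene (1.81 ± 1) were not apart from GJA1+ (1.57 ± 0.77).

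DUSP6, a cytoplasmic phosphatase that is specific for ERK, had levels of 0.844, 0.61 and 0.325 UMIs per 10000 in DLK2+CDKN1C+, 0.604, 0.405 and 0.161 in DLK2+, 0.607, 0.53 and 0.275 in TM4SF1+, 0.29, 0.448 and 0.18 in GJA1+TM4SF1+, and 0.171, 0.189 and 0.0987 in GJA1+. TM4SF1+ and GJA1+ did not overlap, while DLK2+CDKN1C+ and DLK2+ did. Its mean was 0.545 ± 0.22 in CDKN1C+, not apart from DLK2+CDKN1C+ or TM4SF1+, and 0.328 ± 0.12 in cells positive for no gating gene. The nuclear phosphatases DUSP2 and DUSP5 were counted 316 and 405 times in all cells, and 0 to 1 UMI of DUSP2 per cow was found in GJA1+ cells. The means over the 7 states ranged from 0.00329 to 0.0215 for DUSP2 and from 0.00994 to 0.0325 for DUSP5.

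IER3 had levels of 8.11, 10.4 and 4.91 UMIs per 10000 in DLK2+CDKN1C+, 4.91, 6.12 and 3.77 in DLK2+, 4.08, 6.92 and 3.37 in TM4SF1+, and 2.18, 1.61 and 2.66 in GJA1+. GJA1+ lay below the other 3 states without overlap. CDKN1C+ (6.89 ± 2.6) came second in the order, and the neighbours from DLK2+ downwards, including GJA1+TM4SF1+ (3.13 ± 1) and cells positive for no gating gene (3.78 ± 0.61), did not differ beyond the spread.

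**Figure D1:**
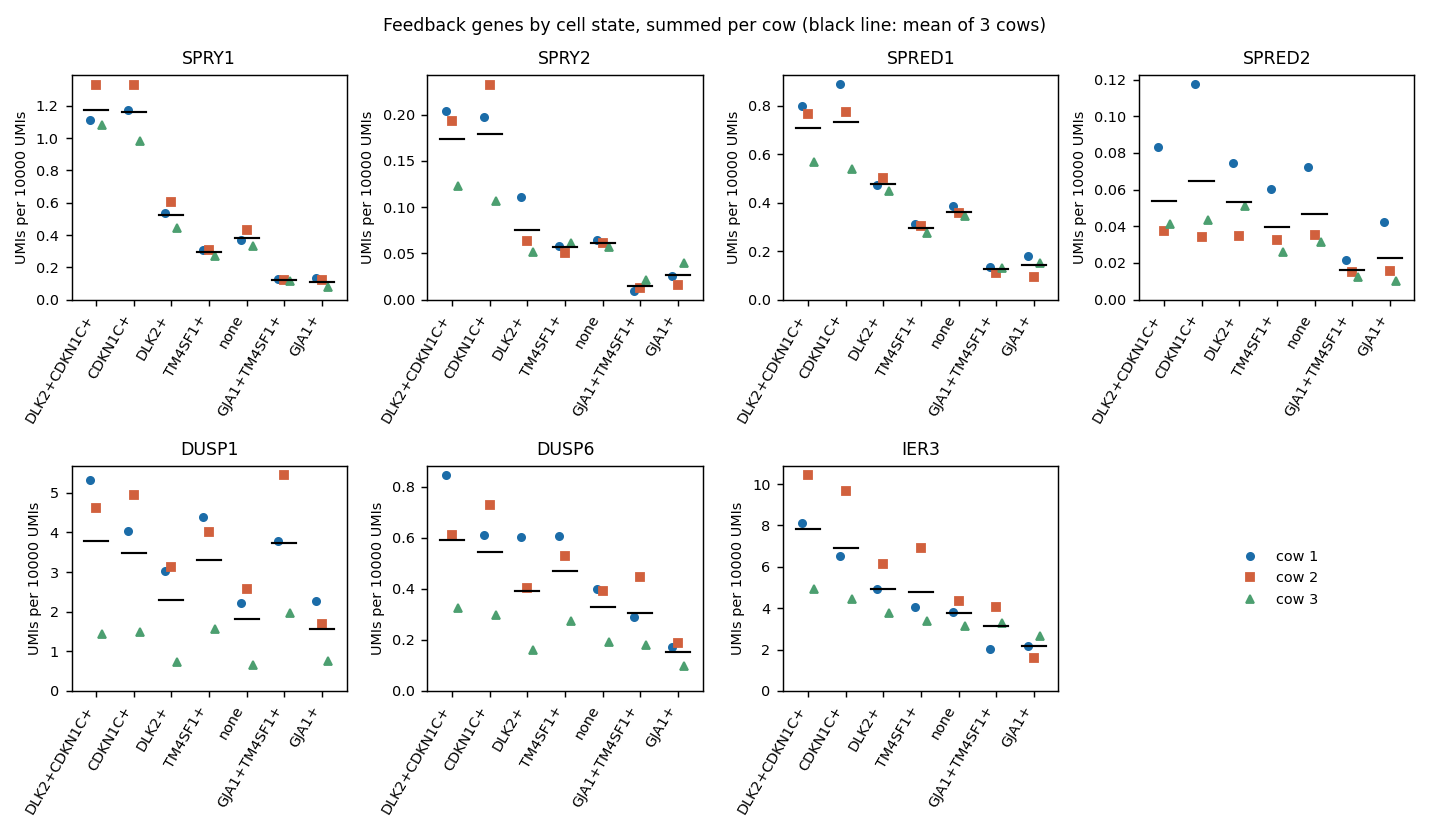
Level of 7 feedback genes in UMIs per 10000 UMIs (vertical axis, from 0) in 7 cell states (horizontal axis), with 1 point per cow and a black line at the mean of the 3 cows. SPRY1 falls from a mean of 1.18 in DLK2+CDKN1C+ to 0.112 in GJA1+ with the cows close together, while DUSP1 is spread between cows and cow 3 is lowest in each state.

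The states were compared on UMI counts summed per cow and state (21 sums), with the cow as a block, by edgeR's quasi-likelihood F test, and p-values were adjusted over 10131 genes by the Benjamini-Hochberg method. A gene was called at an adjusted p under 0.05 and an absolute log2 fold change above 0.25. The 9 feedback genes other than SPRY4 were tested. The comparisons share sums, so they are not independent of each other. With the cow as a block, p-values measure how far differences between states varied among 3 cows of 1 condition. This variation was pooled over all states, and differences in level between cows were taken out by the block.

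Among DLK2+ cells, those with CDKN1C had more Sprouty transcript. Of the 9 feedback genes tested, 5 were higher and 0 lower in DLK2+CDKN1C+ than in DLK2+, where 8.85% of all genes were called in either direction. The median log2 fold change was 0.58 over the 9 genes and 0.01 over all genes tested. SPRY1 was higher by a log2 fold change of 1.09 (SE 0.081, adjusted p = 6.18e-09) and stood first of the 10131 genes by p. SPRY2 was higher by 1.19 (SE 0.21, adjusted p = 0.000427), DUSP1 by 0.69 (SE 0.14, adjusted p = 0.00252), DUSP6 by 0.58 (SE 0.15, adjusted p = 0.0128) and SPRED1 by 0.47 (SE 0.095, adjusted p = 0.00199). All 5 were higher in each cow. IER3 was also higher in each cow, by 0.55 (SE 0.2), but missed the threshold at an adjusted p of 0.0876, and SPRED2 differed by -0.14 (adjusted p = 0.811). SPRED1 lost its call without cow 1 (adjusted p = 0.0884) and in cells thinned to 5000 UMIs (0.124), DUSP6 without cow 3 (0.189), and both DUSP1 and DUSP6 with a gate of 2 UMIs (0.0681 and 0.108). In an edgeR fit without the cow as a block 0 feedback genes were called, with 3 at an unadjusted p under 0.05, while DESeq2 with the block called 5.

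The same 9 genes were divided between DLK2+ and TM4SF1+ cells. Here 2 were higher in DLK2+ and 2 in TM4SF1+, with 23.2% of all genes called. SPRY1 and SPRED1 were higher in DLK2+, by log2 fold changes of 0.78 (SE 0.084, adjusted p = 2.61e-07) and 0.62 (SE 0.093, adjusted p = 2.02e-05). DUSP1 and DUSP6 differed by -0.71 (SE 0.14, adjusted p = 0.000573) and -0.42 (SE 0.13, adjusted p = 0.0212), so both phosphatases were higher in TM4SF1+, in each cow. DUSP6 lost this call with DESeq2 (adjusted p = 0.0878) and without cow 2 or cow 3. Without the cow as a block edgeR called 0 of the 4, with 2 feedback genes at an unadjusted p under 0.05. In the main fit, 6 of 6 cycling markers, 5 of 7 cg-like markers and 8 of 19 immediate-early genes tested were lower in DLK2+. Of each list 0 were higher, and their part in this difference was not tested.

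Against GJA1+ cells, most feedback genes were higher in DLK2+. Of the 9, 6 were higher and 0 lower, but 36.7% of all genes were called in this comparison. The log2 fold changes were 2.11 for SPRY1 (SE 0.13, adjusted p = 1.69e-12), 1.51 for SPRED1 (SE 0.13, adjusted p = 9.82e-10), 1.2 for SPRED2 (adjusted p = 0.00203), 1.15 for DUSP6 (adjusted p = 5.27e-05), 1.05 for SPRY2 (adjusted p = 0.013) and 0.95 for IER3 (adjusted p = 0.000747). DUSP1 was the abundant member that did not pass, at 0.29 (SE 0.15, adjusted p = 0.141), and it went in opposite directions in cows 2 and 3. SPRY2 lost its call without cow 1 (adjusted p = 0.339) and under 15% mitochondrial UMIs (0.297), and SPRED2 without cow 3 (adjusted p = 0.111). Without the cow as a block, 3 members, SPRY1, SPRY2 and SPRED1, were called. In the main fit, 14 of 19 immediate-early genes tested were higher in DLK2+ and 1 lower. Their part in this difference was not tested.

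Between TM4SF1+ and GJA1+ cells, 5 of the 9 were higher in TM4SF1+ and 0 lower, with 16.9% of all genes called. DUSP6 was higher by a log2 fold change of 1.57 (SE 0.2, adjusted p = 2.1e-06), SPRY1 by 1.32 (SE 0.14, adjusted p = 1.18e-07), DUSP1 by 0.995 (SE 0.15, adjusted p = 3.21e-05), IER3 by 0.94 (SE 0.21, adjusted p = 0.0021) and SPRED1 by 0.89 (SE 0.14, adjusted p = 4.17e-05). IER3 lost its call without cow 2 (adjusted p = 0.0959), and without the cow as a block 2 members, SPRY1 and SPRED1, were called. In the main fit, 16 of 19 immediate-early genes tested were higher in TM4SF1+ and 0 lower. Their part in this difference was not tested.

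Within GJA1+ cells, the presence of TM4SF1 went with more DUSP1 and DUSP6. GJA1+TM4SF1+ cells had more DUSP1, by a log2 fold change of 1.25 (SE 0.15, adjusted p = 3.31e-05), and more DUSP6, by 1.05 (SE 0.22, adjusted p = 0.00972). These 2 of 9 were called where 1.53% of all genes were called, and DUSP1 stood in place 6 of 10131 genes by p. SPRY1 differed by 0.08 (SE 0.17, adjusted p = 0.955), SPRED1 by -0.36 (SE 0.17, adjusted p = 0.452) and SPRY2 by -1.21 (SE 0.51, adjusted p = 0.363), the last on 20 UMIs in GJA1+TM4SF1+ cells. Of 7 cg-like markers, 3 (TMEM79, S100A8 and KRT6A) were also higher in GJA1+TM4SF1+ cells and 0 lower, and their part in this difference was not tested. DUSP6 lost its call without cow 2 (adjusted p = 0.327) and in cells thinned to 5000 UMIs (adjusted p = 0.217). Without the cow as a block edgeR called 0 feedback genes, with 1 at an unadjusted p under 0.05.

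**Figure D2:**
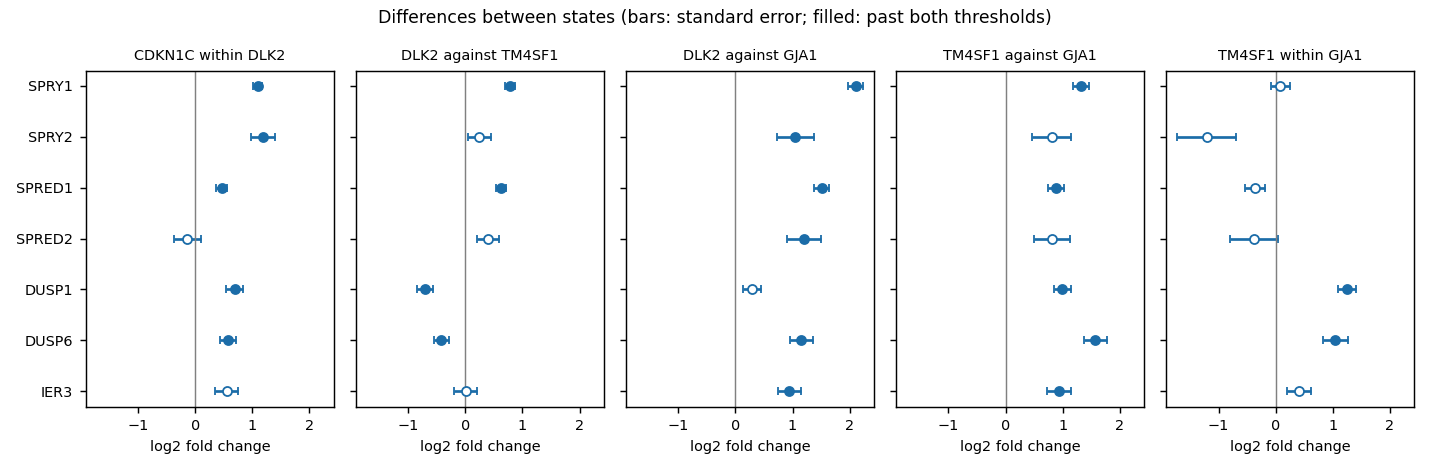
Log2 fold change (horizontal axis) of 7 feedback genes in 5 comparisons of states, each named by the state that is higher at positive values or by the gene that was added, with bars for the standard error and filled points for genes past both thresholds. SPRY1 and SPRED1 are to the right in every comparison but that of TM4SF1 within GJA1, where DUSP1 and DUSP6 are the filled points.

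Whether CDKN1C went with larger differences among DLK2+ cells than among cells without DLK2 was tested as an interaction, the difference between DLK2+CDKN1C+ and DLK2+ less that between CDKN1C+ and cells positive for no gating gene. By edgeR 0 of 10131 genes were called (0.00%), with 462 genes at an unadjusted p under 0.05, and DESeq2 called 0. SPRY1 had an interaction of -0.41 (SE 0.12) and SPRED1 of -0.36 (SE 0.14), both negative in each cow, at adjusted p = 0.992 and 1.

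The feedback genes differed in how they followed the immediate-early list. Each cow's cells were divided into terciles by the share of UMIs in the list, and within DLK2+CDKN1C+ cells DUSP1 rose from 0.247, 1.93 and 0.14 UMIs per 10000 in the lowest tercile to 7.47, 6.5 and 2.95 in the highest. DUSP6 went from 0.123, 0.256 and 0.2 to 1.01, 0.783 and 0.506. SPRED1 went from 0.823, 0.717 and 0.66 to 0.808, 0.84 and 0.511, so it showed no common direction. SPRY1 went from 0.823, 0.819 and 0.84 to 1.27, 1.79 and 1.41, higher in each cow. In DLK2+ cells SPRY1 went from 0.239, 0.372 and 0.349 to 1.13, 1.1 and 0.747, and in TM4SF1+ cells from 0.127, 0.216 and 0.172 to 0.59, 0.436 and 0.323. The terciles were set without the feedback genes. As background, DUSP1 and IER3 are themselves immediate-early genes.

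In the lowest tercile alone, the states were compared again. It held 33, 127 and 176 DLK2+CDKN1C+ cells of cows 1, 2 and 3, and the part of fewer cells in lost calls was not tested. DLK2+CDKN1C+ cells still exceeded DLK2+ cells in SPRY1, by a log2 fold change of 1.17 (adjusted p = 1.76e-07), in SPRY2 by 1.25 (adjusted p = 0.0489) and in SPRED1 by 0.54 (adjusted p = 0.0103). DUSP1 differed by 0.00 there (adjusted p = 1) and DUSP6 by 0.3 (adjusted p = 0.647), so neither call held. DLK2+ cells still exceeded TM4SF1+ cells in SPRY1 (0.8, adjusted p = 0.000194) and SPRED1 (0.62, adjusted p = 0.000618), while DUSP1 at -0.53 missed the threshold (adjusted p = 0.0641). Between GJA1+TM4SF1+ and GJA1+ cells DUSP1 remained higher, by 0.93 (adjusted p = 0.0077), and DUSP6 at 0.67 did not pass (adjusted p = 0.33). Against GJA1+, the calls kept were SPRY1 (1.7), SPRED1 (1.64) and IER3 (0.39) for DLK2+ and SPRY1 (0.9), SPRED1 (1.02) and DUSP6 (0.92) for TM4SF1+. The mitochondrial share of UMIs also differed between states, with medians of 8.62% in DLK2+CDKN1C+, 11.5% in DLK2+ and 16.5% in GJA1+. In cells under 15% mitochondrial UMIs the 5 calls of the CDKN1C comparison were the same 5 genes.

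**Figure D3:**
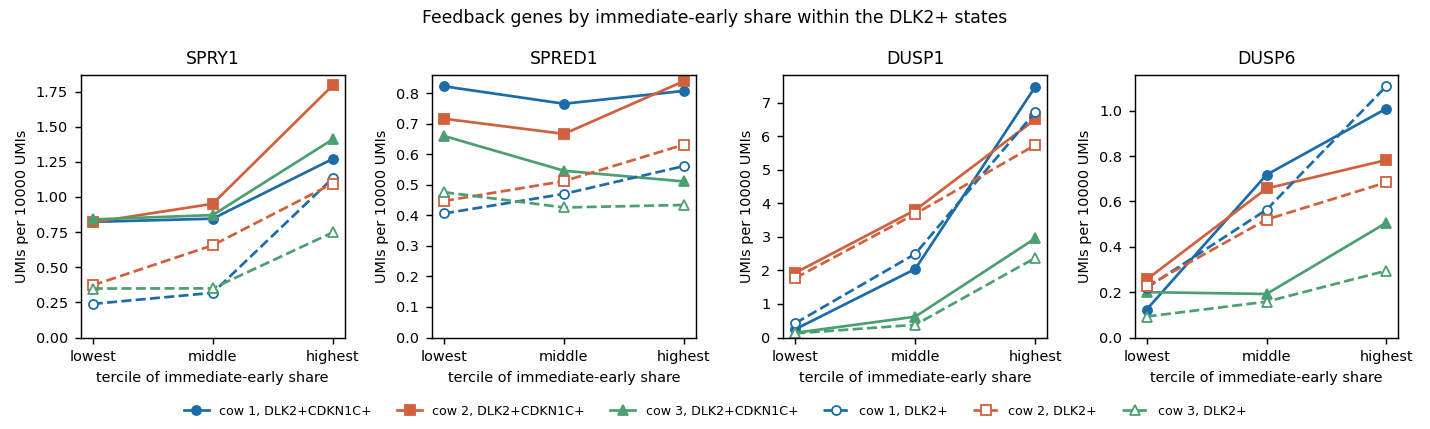
Level in UMIs per 10000 UMIs (vertical axis, from 0) of SPRY1, SPRED1, DUSP1 and DUSP6 in terciles of cells by immediate-early share (horizontal axis), for DLK2+CDKN1C+ (solid, filled) and DLK2+ (dashed, open) cells of each cow. In the lowest tercile SPRY1 is near 0.83 with CDKN1C and 0.32 without it, and in the highest near 1.49 and 0.99. The DUSP1 lines of each cow nearly meet in the lowest tercile and rise together.

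The amount of CDKN1C in a DLK2+ cell was followed through its UMIs, among cells without TM4SF1 and GJA1. SPRY1 was at 0.526 ± 0.081 UMIs per 10000 (SD, n = 3) in cells with 0 UMIs of CDKN1C, 0.995 ± 0.091 with 1, 1.44 ± 0.21 with 2 and 1.36 ± 0.18 with 3 or more. The first 3 classes did not overlap between cows, and the last 2 did. SPRY2 went from 0.0751 ± 0.031 through 0.137 ± 0.043 and 0.21 ± 0.03 to 0.218 ± 0.081, and IER3 from 4.93 ± 1.2 through 6.88 ± 2.2 and 8.58 ± 3.4 to 9.26 ± 3.2. The classes held 3576, 737, 321 and 336 cells, with median depths of 9613, 7883, 7397 and 7376 UMIs. Depth thus differed between the classes, and its part in these levels was not tested.

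**Figure D4:**
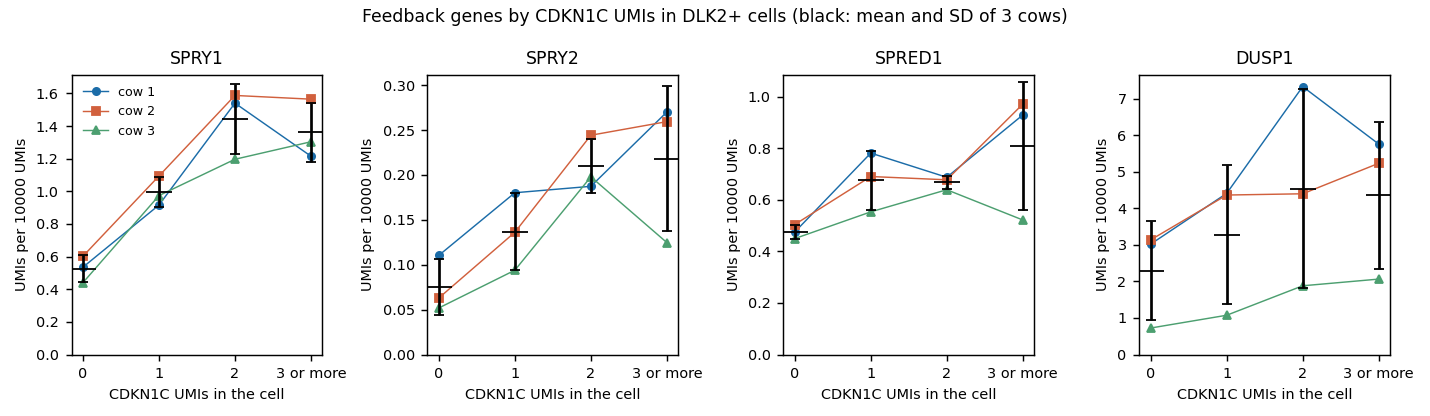
Level in UMIs per 10000 UMIs (vertical axis, from 0) of SPRY1, SPRY2, SPRED1 and DUSP1 in DLK2+ cells with 0, 1, 2 and 3 or more UMIs of CDKN1C (horizontal axis), with 1 line per cow and the mean and SD of 3 cows in black. SPRY1 rises from 0.526 to 1.44 between 0 and 2 UMIs and is at 1.36 with 3 or more.

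The same question was asked over all cells, the mixed ones included, by setting cells with a gating gene against cells without it where the other 3 genes were in the same combination. This gave 19 pairs of a cow and a combination with at least 10 cells on each side for CDKN1C, TM4SF1 and GJA1, and 21 for DLK2. The pairs of 1 cow share an animal, so they are described without a test. With CDKN1C, SPRY2 was higher in 19 of 19 pairs, SPRY1, DUSP1 and SPRED1 in 17 each, IER3 in 18 and DUSP6 in 15. The lowest log2 ratio was -1.92 for SPRED1 and -0.98 for DUSP6. With TM4SF1, DUSP1 was higher in 18 of 19 and DUSP6 in 17, but SPRY1 in 5, SPRY2 in 4 and SPRED1 in 2. With GJA1, SPRED1 and IER3 were higher in 0 of 19 pairs and SPRY1 in 1. With DLK2, IER3 was higher in 20 of 21 and SPRY1 in 18.

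The rest of the pathway was taken from lists fixed by name. Between DLK2+CDKN1C+ and DLK2+, where 8.85% of all genes were called, edgeR called 0 of the 10 adaptors and RAS proteins, with 1 at an unadjusted p under 0.05, and DESeq2 called 0. Among the kinases of the ERK cascade, ARAF, a RAF kinase, was higher by 0.33. The JNK and p38 kinases had 1 of 10 higher (MAP2K6, which activates p38, by 0.9) and 1 lower (MAPK13, a p38 kinase, by -0.35). Of 10 receptors and ligands tested, BTC, the ligand betacellulin, and FGFR2 were higher, by 0.69 and 0.4, and ERBB3 was lower, by -0.91. Of 7 other DUSP genes tested, DUSP4 (1.00, adjusted p = 0.00234) and DUSP14 (0.68) were higher, and of 7 other feedback inhibitors ERRFI1, which blocks the EGF receptor, was higher by 0.57. The ERK output genes had 5 of 13 higher and 0 lower, with EGR1 at 0.82 and ETV5, an ETS factor downstream of FGF receptors, at 0.77. EGR1 and IER2 are also on the immediate-early list, of which 11 of 19 genes tested were higher.

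Against TM4SF1+ and GJA1+ cells, some genes of each pathway list were called, where 23.2% and 36.7% of all genes were called. The kinases of the ERK cascade had 1 of 9 and 2 of 9 called, and the JNK and p38 kinases 2 of 10 and 3 of 10. The adaptors and RAS proteins had 3 of 10 in both. With 9 or 10 genes per list, a difference from those shares was not tested, and none is read here. DLK2+ cells had more FGFR2 than TM4SF1+ cells, by a log2 fold change of 0.7, and more MET, the receptor of hepatocyte growth factor, by 0.86. They had less AREG, the EGF receptor ligand amphiregulin, by -1.9 (adjusted p = 1.58e-07), and less HBEGF, another such ligand, by -0.6, so 4 of 10 receptors and ligands were higher and 2 lower. ETV5 was higher in DLK2+ by 1.36 and KCNN4, a potassium channel, by 0.7. FOSL1, an AP-1 subunit, and CCND1, cyclin D1, differed by -1.45 and -0.88, and EGR1 and MCL1 were also called lower. Thus 2 of 13 output genes were higher and 4 lower. ERRFI1 differed by -0.64, DUSP16 by -1.07 and DUSP3 by -0.63. Of 10 adaptors and RAS proteins, the adaptor GAB1 was higher by 0.49, and HRAS and NRAS differed by -0.41 and -0.37. ARAF was higher by 0.49, 1 of 9 kinases of the ERK cascade, and of 10 JNK and p38 kinases MAP2K6 was higher by 0.92 and MAP2K3 differed by -0.34. Against GJA1+, FGFR2 was higher in DLK2+ by 1.8 (adjusted p = 8.62e-14), ETV5 by 3.1 (adjusted p = 2.56e-09), EGR1 by 1.67 and DUSP4 by 2.16, and 8 of 13 output genes were higher and 2 lower, with CCND1 at -0.42. Of 10 receptors and ligands 6 were higher, MET by 1.29, and 2 were lower, AREG by -1.16 and ERBB3 by -0.87. DUSP14 was higher by 0.95, and DUSP8 and DUSP16 differed by -1.69 and -1.58, so 2 of 7 other DUSP genes were higher and 5 lower. Of 7 other feedback inhibitors, ERRFI1 and CBLB, a ubiquitin ligase of receptor kinases, were higher by 1.11 and 0.69. GAB1 was higher by 0.67, and HRAS and NRAS differed by -0.56 and -0.55. Of the 9 kinases of the ERK cascade 2 were higher, BRAF and ARAF, the latter by 1.09. Of the 10 JNK and p38 kinases, MAP2K6 was higher by 1.25, and MAPKAPK2 and MAPK13 differed by -0.79 and -0.68.

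In the comparison of TM4SF1+ with GJA1+ cells 16.9% of all genes were called, and in that of GJA1+TM4SF1+ with GJA1+ cells 1.53%. TM4SF1+ cells exceeded GJA1+ cells in EGR1, by a log2 fold change of 2.13, in ETV5 by 1.74, in DUSP4 by 2.22, in ERRFI1 by 1.75, in HBEGF by 1.31 and in BTC by 1.29, with 7 of 13 output genes and 5 of 10 receptors and ligands higher and 0 lower. DUSP14 was higher by 1.16, and DUSP23 and DUSP7 differed by -0.42 and -0.33. ARAF was higher by 0.6 and MAPK9, a JNK kinase, by 0.44, and MAPK13 differed by -0.47, while edgeR and DESeq2 called 0 of 10 adaptors and RAS proteins, of which 0 had an unadjusted p under 0.05. Within GJA1+ cells, TM4SF1 went with more ERRFI1 (1.00, adjusted p = 0.00853), AREG (0.99, adjusted p = 0.0201), DUSP14 (1.3), EGR1 (1.12) and IER2 (0.98). In this last comparison 12 of 19 immediate-early genes tested were higher, and edgeR and DESeq2 called 0 of 10 adaptors and RAS proteins, 0 of 9 ERK cascade kinases and 0 of 10 JNK and p38 kinases, of which 2, 0 and 2 had an unadjusted p under 0.05.

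Over the 21 sums, after the mean of each cow was taken out, the levels of SPRY1, SPRED1 and SPRY2 ran together. Pearson's r was 0.969 for SPRY1 with SPRED1, 0.914 for SPRY1 with SPRY2, 0.655 for DUSP1 with DUSP6, 0.831 for DUSP6 with IER3 and 0.199 for DUSP1 with SPRY1. DUSP6 had an r of 0.739 with SPRY1, 0.688 with SPRED1 and 0.682 with SPRY2, each above its r with DUSP1. IER3 had an r of 0.853 with SPRED1, 0.843 with SPRY2, 0.811 with SPRY1 and 0.497 with DUSP1. The genes most like SPRY1 were HPGD, the prostaglandin dehydrogenase (r = 0.990), and GABARAPL1 (r = 0.987). Those most like SPRED1 were PLPP3 (r = 0.989) and RAB34 (r = 0.988), and those most like SPRY2 were SOD1 (r = 0.966) and SH3RF3 (r = 0.963). DUSP1 was most like CDKN1A, the cell cycle inhibitor p21 (r = 0.945), and PPP1R15A (r = 0.861), DUSP6 most like GADD45B (r = 0.964) and GADD45A (r = 0.961), and IER3 most like NFKBIA, which is on the immediate-early list (r = 0.977), and DDX5 (r = 0.969). The sums share cows and libraries and differ in depth, so these values are descriptions.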

How the data were processed

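Droplet single-cell RNA sequencing was carried out on ventral rumen epithelium of 3 cows, with 1 library each. The authors made the matrix with Cell Ranger 3.1.0 (per the labels) and their filters on cells and deposited whole-number UMI counts per gene and cell. They also deposited natural log values of the counts scaled per cell, which here gave gene names and a check of the order of genes (355 genes, tolerance 1e-06). Cow was taken from the barcode suffix.

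Counts were summed per cow and state and tested with edgeR 4.0.16 in R 4.3.3 (TMM, filterByExpr, quasi-likelihood, cow as a block, 4 gating genes left out). Sums of the same cow had a mean correlation of 0.594 (lowest 0.237) after state means were taken out, and those of different cows -0.326. With 3 cows, taking out state means by itself pushes the correlation between different cows to negative values, so the 2 values are descriptions. The residual degrees of freedom were 12. Alternatives were DESeq2 1.42.0, RLE scaling, no low-count filter, no block, each cow left out, a gate of 2 UMIs, thinning to 5000 UMIs per cell, the lowest immediate-early tercile, a mitochondrial share under 15%, no cells in the top 5% by UMIs, and a fold threshold of 0.36. Sums and levels were computed in Python 3.11.15 (numpy 2.4.6, pandas 2.3.3).

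All 10 members are named. From each list of pathway genes, at most 2 called genes per direction and comparison were named, those with the largest fold change and the same sign in 3 cows, and for likeness the 2 genes with the highest r. Not every gene that this rule names is reported here, and EGR1 and MCL1 are named beyond it for DLK2 against TM4SF1. The members and lists were chosen with earlier results of these data known. UMIs limit counting error only, and the precision rests on 3 cows. The authors looked for doublets with DoubletFinder. No caller was run again here, and high-UMI cells were left out in an alternative. Genomic positions and sequences were not used here.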

Additional observations from a re-analysis of the deposited data

How the results depend on the processing

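The calls for SPRY1 and SPRED1 in DLK2 against GJA1 were kept in each alternative, and those in DLK2 against TM4SF1 in each but that with no replicate block, where 17 member calls were lost and the cause was not tested. With no replicate block, edgeR called 0 genes (418 at an unadjusted p under 0.05) and 0 members for CDKN1C within DLK2, 29 and 0 for DLK2 against TM4SF1, 1020 and 3 for DLK2 against GJA1, 113 and 2 for TM4SF1 against GJA1, and 0 (296 unadjusted) and 0 for TM4SF1 within GJA1, while IER3 turned to -0.046 in DLK2 against TM4SF1 and DUSP5 to 0.67 in TM4SF1 within GJA1.

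In the lowest immediate-early tercile, with fewer cells per sum, 383 genes and 3 members were called for CDKN1C within DLK2, 907 and 2 for DLK2 against TM4SF1, 2252 and 3 for DLK2 against GJA1, 634 and 3 for TM4SF1 against GJA1, and 98 and 1 for TM4SF1 within GJA1. DUSP1 turned to -0.28 in DLK2 against GJA1, SPRY1 to -0.31 in TM4SF1 within GJA1 and SPRY2 to 0.028 in the interaction. A gate of 2 UMIs gave 354 genes and 3 members for CDKN1C within DLK2, and turned SPRED2 to -0.14 in DLK2 against TM4SF1 and, in TM4SF1 within GJA1, DUSP5 to 0.089 and SPRED2 to 0.19. Thinning to 5000 UMIs gave 376 genes for CDKN1C within DLK2, 1301 for DLK2 against TM4SF1, and 27 genes and 1 member for TM4SF1 within GJA1, where SPRY2 turned to 0.025, SPRED1 to 0.036 and SPRED2 to 1.4. Under 15% mitochondrial UMIs, 512, 842 and 87 genes were called for CDKN1C within DLK2, TM4SF1 against GJA1 and TM4SF1 within GJA1, IER3 turned to -0.103 in DLK2 against TM4SF1, and DUSP5 and SPRED2 to 0.37 and 0.63 in TM4SF1 within GJA1. Without the low-count filter, 291 genes were called for TM4SF1 within GJA1 and 4 for the interaction. DESeq2 turned DUSP2 to 0.074 in DLK2 against TM4SF1, and leaving out the top 5% of cells turned IER3 there to -0.0459. Members that missed the threshold were called in some alternatives: IER3 in CDKN1C within DLK2, DUSP1 in DLK2 against GJA1 and SPRY2 in TM4SF1 against GJA1 without the filter and without cow 3, IER3 and SPRY2 there also with thinning, DUSP1 there also under 15% mitochondrial UMIs and without the top 5% of cells, SPRED2 in TM4SF1 against GJA1 with thinning and a gate of 2 UMIs, and IER3 in TM4SF1 within GJA1 without the filter.

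With 1 cow left out at a time, the calls ranged from 386 to 567 genes for CDKN1C within DLK2 (386 without cow 1), 1230 to 1861 for DLK2 against TM4SF1 (1230 without cow 2), 897 to 1216 for TM4SF1 against GJA1 (897 without cow 1) and 59 to 135 genes and 1 to 2 members for TM4SF1 within GJA1 (59 and 1 without cow 2). DUSP5 ranged from -1.74 to 0.22 in DLK2 against TM4SF1, from -0.54 to 1.38 in DLK2 against GJA1, from -0.062 to 1.42 in TM4SF1 against GJA1 and from -0.45 to 1.12 in TM4SF1 within GJA1. In the last comparison SPRY1 ranged from -0.17 to 0.27 and SPRED2 from -0.65 to 0.35. IER3 ranged from -0.0695 to 0.18 in DLK2 against TM4SF1, and in the interaction DUSP6 ranged from -0.21 to 0.082 and SPRY2 from -0.48 to 0.14. No cause of these changes was tested. With few UMIs, DUSP2, DUSP5, SPRED2 and, in GJA1 states, SPRY2 leave room for large differences only.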
